A study of Homo sapiens with 6 samples.

Results

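Serine and glycine are made from a glycolytic intermediate, and their carbon feeds the folate cycle, which carries single-carbon units for the synthesis of purines and thymidylate. The genes described here are 9 enzymes of this route, PHGDH, PSAT1, PSPH, SHMT1, SHMT2, MTHFD1, MTHFD1L, MTHFD2 and ALDH1L2, chosen by gene symbol from the 19470 genes of the count table, and all 9 were found there. They were measured in HCCC9810 cells, an established human cholangiocarcinoma (CCA) line. The cells were labelled wild type and received either vehicle (DMSO) or isolinderalactone (ILL), a plant sesquiterpene lactone, at 20 μM, both for 24 h, with 3 libraries per group. The question of the comparison was which transcripts ILL alters in CCA cells. A single cell line was sequenced, and the labels do not state whether the 3 libraries of a group came from separate cultures, so the p-values measure the spread between these libraries, which may be technical.

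Serine synthesis takes place in the cytosol. PHGDH, the entry enzyme, oxidises 3-phosphoglycerate, PSAT1 then adds an amino group taken from glutamate, and PSPH removes the phosphate to release serine. The folate cycle runs in parallel in mitochondria and cytosol with a paralogous set of enzymes. In mitochondria SHMT2 splits serine into glycine and a folate-bound carbon unit, MTHFD2 oxidises that unit, MTHFD1L releases it as formate, and ALDH1L2 oxidises it to carbon dioxide while making NADPH. In the cytosol SHMT1 and the trifunctional enzyme MTHFD1 carry out matching reactions, usually fed by the formate that mitochondria export. In many tumours and proliferating cells the mitochondrial enzymes are abundant, and several genes of the route are known targets of ATF4, the transcription factor of the integrated stress response.

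Reads were counted per gene, with 34282764 to 37758569 counts per library, and 13066 genes passed the filter on low counts, all 9 enzyme genes among them. Genes with an adjusted p-value under 0.05 whose level also differed more than 2-fold in either direction were called differentially expressed genes (DEGs). Levels below are FPKM, read counts scaled to gene length and library total, and fold changes come from edgeR's quasi-likelihood test on the counts, adjusted over all tested genes. No libraries of 1 group were alike within counting noise (chi-square over degrees of freedom 5.10 to 11.8), and each was taken as 1 replicate. The biliary markers KRT7, KRT19, KRT8, KRT18, EPCAM and SOX9 were detected in every library. The summed hepatocyte, fibroblast and endothelial markers stayed at or under 47.1 CPM (counts scaled to the TMM-adjusted library size) in every library. The 5 leukocyte markers summed to 37.3 to 41.6 CPM in controls and 113 to 119 CPM with ILL, almost wholly through CD68, a lysosomal protein that is not limited to leukocytes, while PTPRC had at most 9 counts.

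Treatment with ILL upregulated the serine synthesis genes PHGDH and PSPH and all 4 mitochondrial one-carbon genes, and downregulated both cytosolic one-carbon genes, SHMT1 and MTHFD1. PSAT1 was barely detected in either group. Of the 9 genes, 4 were DEGs with higher levels (PHGDH, PSPH, MTHFD2 and ALDH1L2), against 12.5% of all tested genes, and 1 was a DEG with a lower level (MTHFD1), against 11.4%. By the adjusted p-value alone, 6 rose and 2 fell, against 36.2% and 36.9% of all tested genes. The median log2 fold change of the 9 genes was 0.66, beside -0.0012 over all tested genes. Together the 9 genes took 0.0647% to 0.0670% of the counts in control libraries and 0.122% to 0.128% with ILL. In RNA from whole cultures, fewer cells of a kind and less RNA per cell cannot be told apart.

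**Figure D1:**
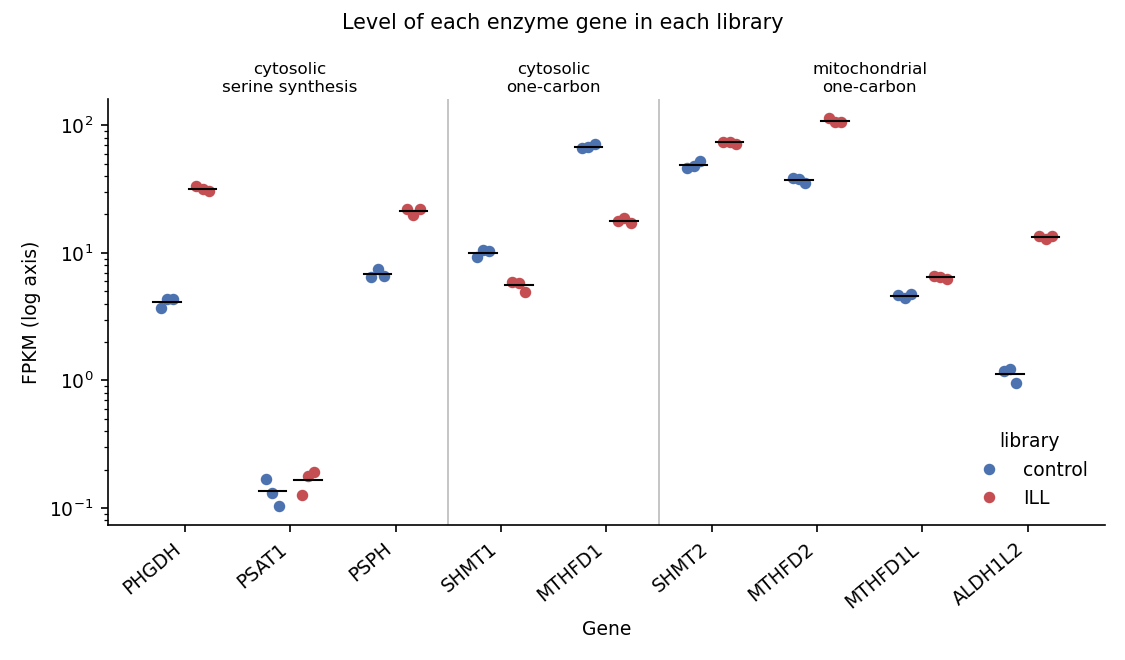
FPKM on a log axis of the 9 enzyme genes in each library, with control libraries in blue, ILL libraries in red and a bar at each group's mean (n = 3). The groups overlapped for PSAT1 alone, at 0.104 to 0.190 FPKM, and the highest level was that of MTHFD1 in controls and of MTHFD2 with ILL.

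PHGDH, which lies at chr1:119648411-119744226 on the plus strand (GRCh38, GENCODE 29), had 3.70, 4.31 and 4.38 FPKM in control replicates 1 to 3 and 33.4, 31.6 and 30.7 FPKM in ILL replicates 1 to 3. Every ILL library stood far above every control library. The log2 fold change was 3.02 (95% interval 2.88 to 3.16, standard error 0.07, adjusted p = 7.20e-22), an 8.11-fold increase. It ranked 158 of 13066 tested genes by log2 fold change, counted from the highest. PHGDH was therefore the serine synthesis gene with the largest fold change of the 3.

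PSPH (chr7:56011051-56051604, minus strand), the phosphatase of the last step, had 6.50, 7.52 and 6.53 FPKM in controls and 21.9, 19.6 and 22.1 FPKM with ILL. The groups did not overlap, and PSPH rose 3.25-fold (log2 1.70, standard error 0.08, adjusted p = 3.79e-16). In controls PSPH had the higher FPKM of the pair, 6.85 ± 0.58 against 4.13 ± 0.38 FPKM (SD, n = 3) for PHGDH. With ILL the order in FPKM was the opposite, 21.2 ± 1.36 FPKM for PSPH and 31.9 ± 1.36 FPKM for PHGDH. Raw counts, not scaled to gene length, were higher for PHGDH in every library. In controls they were 1023, 1083 and 1114 for PHGDH and 771, 810 and 712 for PSPH. The order of the pair in controls therefore rests on the gene lengths used for FPKM.

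PSAT1 (chr9:78297143-78330093, plus strand), the aminotransferase between these enzymes, had 14, 10 and 8 counts in control libraries and 10, 14 and 15 counts with ILL. These counts correspond to 0.168, 0.132 and 0.104 FPKM in controls and 0.127, 0.179 and 0.190 FPKM with ILL, so the groups overlapped. The log2 fold change was 0.35 with a 95% interval from -0.85 to 1.56 (adjusted p = 0.599) and no difference was detectable at this depth. GENCODE 29 lists 4 PSAT1 pseudogenes, none of which is in the count table, and 9.52% of the 50-base windows of its coding sequence occur identically in transcripts of other genes. How reads that match several places were assigned is not given in the sources used here, so even these few counts are uncertain.

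The 3 serine synthesis genes together summed to 10.4 to 12.0 FPKM in controls and 51.4 to 55.4 FPKM with ILL. PSAT1 contributed under 0.2 FPKM to each sum.

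Among the mitochondrial genes, ALDH1L2 (chr12:105019784-105084577, minus strand), the formyl-tetrahydrofolate dehydrogenase that generates NADPH, had 1.18, 1.23 and 0.958 FPKM in control replicates 1 to 3. With ILL it had 13.6, 12.9 and 13.5 FPKM. The ILL values exceeded every control value by more than 10 FPKM, and ALDH1L2 ranked 79 of 13066 genes from the highest log2 fold change. That change was 3.64 (standard error 0.08, adjusted p = 6.33e-22), a 12.5-fold increase and the largest of the 9 genes. On the log2(FPKM + 1) scale, which compresses the change of genes at low levels, the difference was 2.76.

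MTHFD2 (chr2:74198562-74217565, plus strand) encodes the mitochondrial dehydrogenase and cyclohydrolase. It had 38.7, 38.0 and 35.4 FPKM in controls and 113, 106 and 107 FPKM with ILL. The groups did not overlap, and the increase was 3.05-fold (log2 1.61, standard error 0.05, adjusted p = 6.72e-19). SHMT2 (chr12:57229327-57234935, plus strand), the mitochondrial serine hydroxymethyltransferase, had 46.6, 47.7 and 52.2 FPKM in controls and 74.5, 74.5 and 71.4 FPKM with ILL. Its increase was smaller, 1.58-fold (log2 0.66, standard error 0.06, adjusted p = 1.19e-10), and stayed under the fold change required of a DEG.

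MTHFD1L (chr6:150865549-151101887, plus strand), the mitochondrial synthetase that releases formate, had 4.68, 4.41 and 4.78 FPKM in controls and 6.60, 6.47 and 6.18 FPKM with ILL. All ILL libraries were higher, but the change of 1.46-fold (log2 0.54, standard error 0.06, adjusted p = 1.39e-08) was the smallest among the 8 genes that passed the adjusted p-value. The 4 mitochondrial genes summed to 91.2 to 93.3 FPKM in controls and to 198 to 208 FPKM with ILL. MTHFD2 and SHMT2 made up most of that sum in both groups.

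The cytosolic genes moved the other way. MTHFD1 (chr14:64388031-64463457, plus strand), the trifunctional enzyme that loads formate onto tetrahydrofolate, had 65.7, 67.1 and 70.7 FPKM in controls, the highest level of the 9 genes. With ILL it had 17.8, 18.8 and 17.0 FPKM, and no ILL library came near a control library. MTHFD1 was 3.62-fold lower with ILL (log2 -1.86, standard error 0.06, adjusted p = 4.27e-19), at rank 527 of 13066 genes counted from the lowest.

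SHMT1 (chr17:18327860-18363563, minus strand), the cytosolic serine hydroxymethyltransferase, had 9.28, 10.6 and 10.3 FPKM in controls and 5.88, 5.82 and 4.96 FPKM with ILL. It was 1.72-fold lower (log2 -0.79, standard error 0.10, adjusted p = 7.41e-08), which passed the adjusted p-value and not the fold change required of a DEG. Together SHMT1 and MTHFD1 summed to 75.0 to 81.0 FPKM in controls and 22.0 to 24.6 FPKM with ILL.

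**Figure D2:**
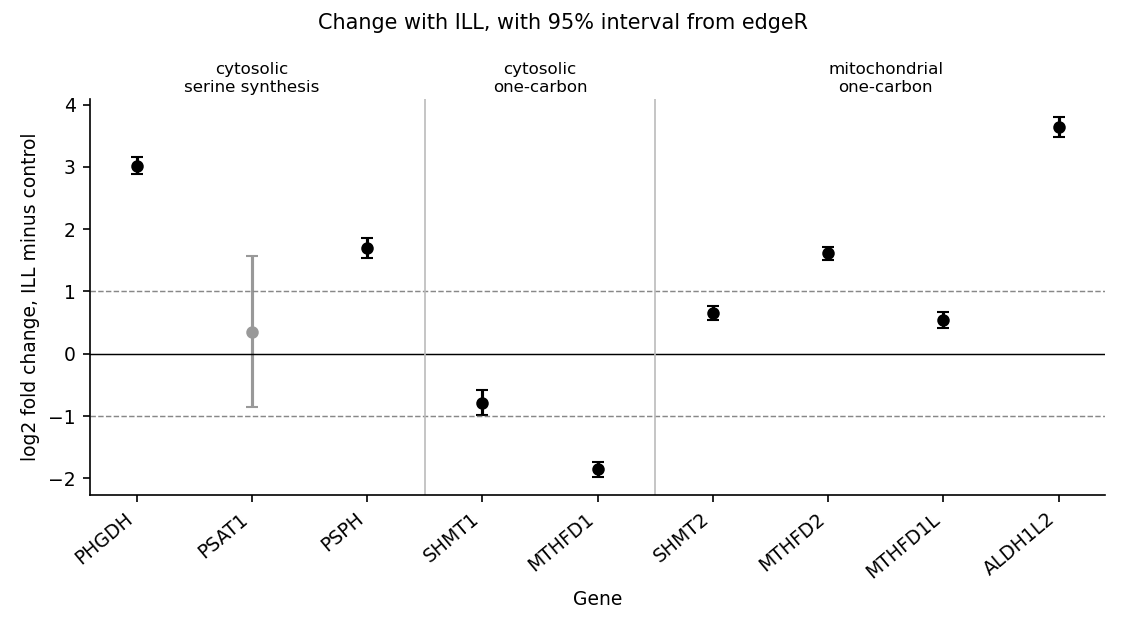
Log2 fold change of each enzyme gene, ILL minus control, with the 95% interval from edgeR's fit to 3 libraries per group. Black points passed the adjusted p-value, the grey point (PSAT1) did not, and dashed lines mark a fold change of 2 in either direction. Intervals of the 4 mitochondrial genes lie above 0 and those of SHMT1 and MTHFD1 below it.

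The order of the 9 levels differed between the groups, and within each group no gene's 3 values overlapped those of the next gene in the order. In controls it ran MTHFD1, SHMT2, MTHFD2, SHMT1, PSPH, MTHFD1L, PHGDH, ALDH1L2 and PSAT1, from a mean of 67.8 FPKM down to 0.135 FPKM. With ILL it ran MTHFD2, SHMT2, PHGDH, PSPH, MTHFD1, ALDH1L2, MTHFD1L, SHMT1 and PSAT1, from 109 FPKM down to 0.165 FPKM. MTHFD1 moved from rank 1 to rank 5 and PHGDH from rank 7 to rank 3, while SHMT2 held rank 2 and PSAT1 rank 9 in both. Such ranks compare different genes, so they depend on the gene lengths used for FPKM.

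The balance between paralogous enzymes was then compared as a ratio of FPKM within each library, which does not depend on how libraries are scaled. Whether a ratio lies under or over 1 does depend on the gene lengths used for FPKM, while its change between groups does not. MTHFD2 stood at 0.589, 0.566 and 0.501 times MTHFD1 in controls and at 6.38, 5.66 and 6.27 times MTHFD1 with ILL. The ratio thus lay under 1 in every control library and over 1 in every ILL library, a difference of 3.47 on the log2 scale, or 11.1-fold. MTHFD1L relative to MTHFD1 went from between 0.0656 and 0.0712 to between 0.345 and 0.371, a 5.28-fold difference. SHMT2 relative to SHMT1 went from between 4.51 and 5.06 to between 12.7 and 14.4, a 2.73-fold difference.

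Two-sided exact permutation tests over the 20 possible splits gave p = 0.1 for each of 5 pairs compared, 0.1 also after Benjamini-Hochberg adjustment, which is the smallest p that 3 libraries against 3 allow. The other pairs include a gene outside the 9. ALDH1L2 relative to ALDH1L1, its cytosolic paralogue, was 1.71, 1.15 and 0.899 in controls and 4.24, 3.34 and 4.45 with ILL, although ALDH1L1 itself rose 3.76-fold (0.942 ± 0.219 to 3.36 ± 0.43 FPKM, SD, n = 3, adjusted p = 3.45e-10, log2 1.91, or 1.17 on the log2(FPKM + 1) scale). MTHFD2 relative to MTHFD2L, a second mitochondrial isozyme, was 23.6 to 33.1 in controls and 156 to 210 with ILL. MTHFD2L was a DEG in the opposite direction to MTHFD2, at 1.35 ± 0.17 FPKM in controls and 0.585 ± 0.087 FPKM with ILL (SD, n = 3), 2.20-fold lower (adjusted p = 2.48e-07).

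**Figure D3:**
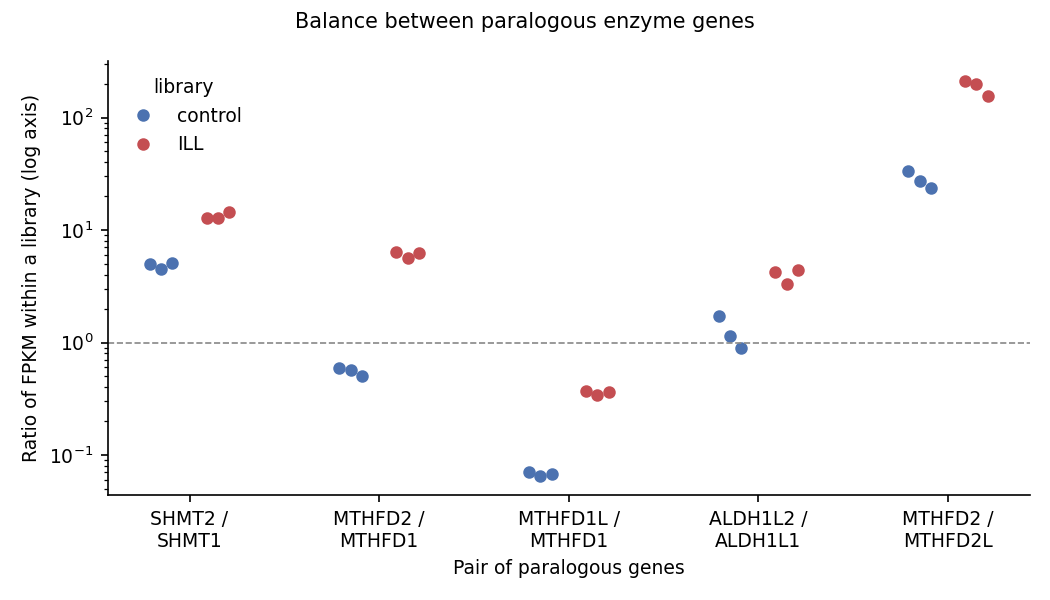
Ratio of FPKM of paralogous genes within each library on a log axis, with control libraries in blue and ILL libraries in red, 3 each, and a dashed line at equal levels. Only the ratio of MTHFD2 to MTHFD1 lay wholly under 1 in controls and wholly over 1 with ILL.

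The reference sequences at the start sites of the genes were searched on both strands for a pair of motifs, because several genes of the route are known targets of ATF4 and of MYC family proteins. The core of the C/EBP-ATF composite element was searched as TGATGNAA, and the E-box, the letters that MYC and related factors bind, as CACGTG. The motifs share no letters in the matches shown. RefSeq promoter windows of 300 bases (GRCh38.p14) were at hand for PHGDH, PSAT1, SHMT1, MTHFD1, MTHFD2 and MTHFD1L, 6 of the 9 genes, and PSPH, SHMT2 and ALDH1L2 were not matched. The composite core occurred in the windows of 1 of the 6 genes and in 3.62% of all 35116 windows. The E-box occurred in those of 2 genes and in 7.26% of all windows. Counts of genes and shares of windows are unlike measures, because a gene such as MTHFD1L has several windows. The matches are printed 5′ to 3′ on the plus strand with the motif in capitals, to show which letters stand at these start sites.
MTHFD1L composite core, chr6:150866347-150866374: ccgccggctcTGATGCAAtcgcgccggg
MTHFD1L E-box, chr6:150866322-150866347: cgcccggctcCACGTGcgcagccggc
MTHFD1 E-box, chr14:64388328-64388353: agtccctaagCACGTGggttgggttg
The composite core of MTHFD1L begins 129 and 90 bases before 2 of its start sites and 24 bases after another, and the E-box of MTHFD1 begins 15 bases before its start site. The window of a further MTHFD1L start site, at chr6:151007008, holds neither motif. MTHFD1L, with both motifs in its other windows, rose 1.46-fold, and MTHFD1, with an E-box alone, was 3.62-fold lower. PHGDH and MTHFD2, which rose 8.11-fold and 3.05-fold, hold neither string in these windows. Nor do SHMT1, which was 1.72-fold lower, and PSAT1, which had no detectable difference. Absence from these windows says nothing about sites elsewhere in the genes. Binding of a factor was not measured.

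The genes that adjoin the route were taken from 5 lists of 59 genes in all, of which 52 passed the filter on low counts. Of these 52, 17 rose and 24 fell by the adjusted p-value, beside 36.2% and 36.9% of all tested genes, and 10 were DEGs in each direction, beside 12.5% and 11.4%. Their median log2 fold change was -0.25. The same shares of all tested genes are the background for the counts of each list below.

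Among 18 folate enzymes and folate carriers, all tested, 3 rose and 12 fell, 7 of them as DEGs. Thymidylate synthase (TYMS), which consumes folate-bound carbon to make thymidylate, had 54.4, 58.6 and 55.1 FPKM in controls and 5.87, 4.93 and 5.08 FPKM with ILL, a 10.1-fold lower level (log2 -3.33, standard error 0.08, adjusted p = 1.87e-21). The plasma membrane folate carrier SLC19A1 was 2.99-fold lower (adjusted p = 1.75e-12). The mitochondrial folate carrier SLC25A32 fell by 0.98 on the log2 scale, from 20.4 ± 1.49 to 9.87 ± 0.38 FPKM (SD, n = 3, adjusted p = 6.22e-12). MTR, the methionine synthase, was 1.61-fold lower (adjusted p = 1.36e-08).

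Of 11 genes for glycine cleavage and glycine use, 9 were tested, 1 rose and 3 fell. The glycine cleavage system has 4 protein parts. GCSH, its lipoyl carrier protein, was 2.81-fold lower, at 38.1 ± 1.13 FPKM in controls and 12.9 ± 0.93 FPKM with ILL (SD, n = 3, adjusted p = 1.97e-15). GLDC, the glycine decarboxylase, was at low levels of 0.489, 0.584 and 0.532 FPKM in controls and 0.168, 0.403 and 0.218 FPKM with ILL (log2 -0.95, standard error 0.37, adjusted p = 0.0232). That call was lost without control replicate 2 (adjusted p = 0.0697), without ILL replicate 1 (adjusted p = 0.115) or without ILL replicate 3 (adjusted p = 0.0770). AMT, the aminomethyltransferase, had 0.053 to 0.260 FPKM in controls and 0.0988 to 0.419 FPKM with ILL (adjusted p = 0.123), and it passed without control replicate 3 (adjusted p = 0.0368) or ILL replicate 2 (adjusted p = 0.0479). DLD, a dehydrogenase shared with other mitochondrial complexes, had a log2 fold change of -0.03 (95% interval -0.14 to 0.08, adjusted p = 0.619). GCAT, the glycine C-acetyltransferase, was 1.66-fold lower (adjusted p = 9.39e-08).

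In the methionine cycle and transsulfuration list, 8 of 11 genes were tested, with 3 that rose and 3 that fell. CBS and CTH, the enzymes that carry serine into cystathionine and then cysteine, both rose. CBS had 0.589, 0.244 and 0.275 FPKM in controls and 2.87, 4.15 and 3.61 FPKM with ILL, 9.94-fold higher (log2 3.31, standard error 0.23, adjusted p = 3.37e-12). On the log2(FPKM + 1) scale, which understates the change of low genes, its log2 difference was 1.73. CTH had 5.84, 5.40 and 4.09 FPKM in controls and 14.3 to 16.0 FPKM with ILL, 3.10-fold higher (adjusted p = 4.12e-13). Upstream in the cycle, MAT2A, which makes S-adenosylmethionine, was 1.60-fold lower (adjusted p = 1.29e-11), and AHCY, which hydrolyses S-adenosylhomocysteine, was 1.79-fold lower (adjusted p = 6.26e-14).

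Of 10 genes of serine use, 9 were tested, and 5 rose and 3 fell. PTDSS1, a phosphatidylserine synthase, was 3.09-fold lower, at 35.1 ± 0.44 FPKM in controls and 10.8 ± 0.25 FPKM with ILL (SD, n = 3, adjusted p = 1.51e-18). SPTLC1 and SPTLC2, subunits of serine palmitoyltransferase, rose 1.25-fold and 1.28-fold (adjusted p = 4.46e-05 and 1.05e-05). SPTLC3, a further subunit of the same enzyme that was named after its values were seen, was 1.49-fold lower, at 1.88 ± 0.14 FPKM in controls and 1.20 ± 0.11 FPKM with ILL (SD, n = 3, adjusted p = 0.00022). SRR, the serine racemase, had a log2 fold change of -0.22 (adjusted p = 0.123), and it passed without control replicate 2 (adjusted p = 0.0353), with scaling by library size alone (0.0452) and with limma on log2 FPKM with a pseudocount of 1 (0.0447) or 0.1 (0.0499) and a filter on low values.

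All 8 tested genes of the 9 serine and glycine transporters passed the adjusted p-value, 5 higher and 3 lower with ILL. Of all 13066 tested genes, 9547 passed it too. SLC1A5, a plasma membrane carrier of glutamine and other neutral amino acids including serine, had 92.6, 99.4 and 91.8 FPKM in controls and 295, 326 and 299 FPKM with ILL. The groups were far apart, and the increase was 3.40-fold (adjusted p = 2.34e-19). Its relative SLC1A4 rose 6.08-fold from 2.91 ± 0.23 to 16.9 ± 0.46 FPKM (SD, n = 3, adjusted p = 5.56e-20), and the glycine transporter SLC6A9 rose 9.69-fold from 2.06 ± 0.22 to 19.0 ± 1.37 FPKM (SD, n = 3, adjusted p = 2.90e-20). SFXN1, which brings serine into mitochondria, was 1.83-fold lower, at 24.0 ± 0.20 FPKM in controls and 12.5 ± 0.44 FPKM with ILL (SD, n = 3, adjusted p = 1.24e-12). Its relatives SFXN2 and SFXN3, named after their values were seen, moved in opposite directions. SFXN3 rose 1.47-fold, from 17.7 ± 0.75 to 24.8 ± 0.19 FPKM (SD, n = 3, adjusted p = 1.11e-08). SFXN2 was 3.22-fold lower, at 3.24 ± 0.50 FPKM in controls and 0.956 ± 0.133 FPKM with ILL (SD, n = 3, adjusted p = 2.43e-09).

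**Figure D4:**
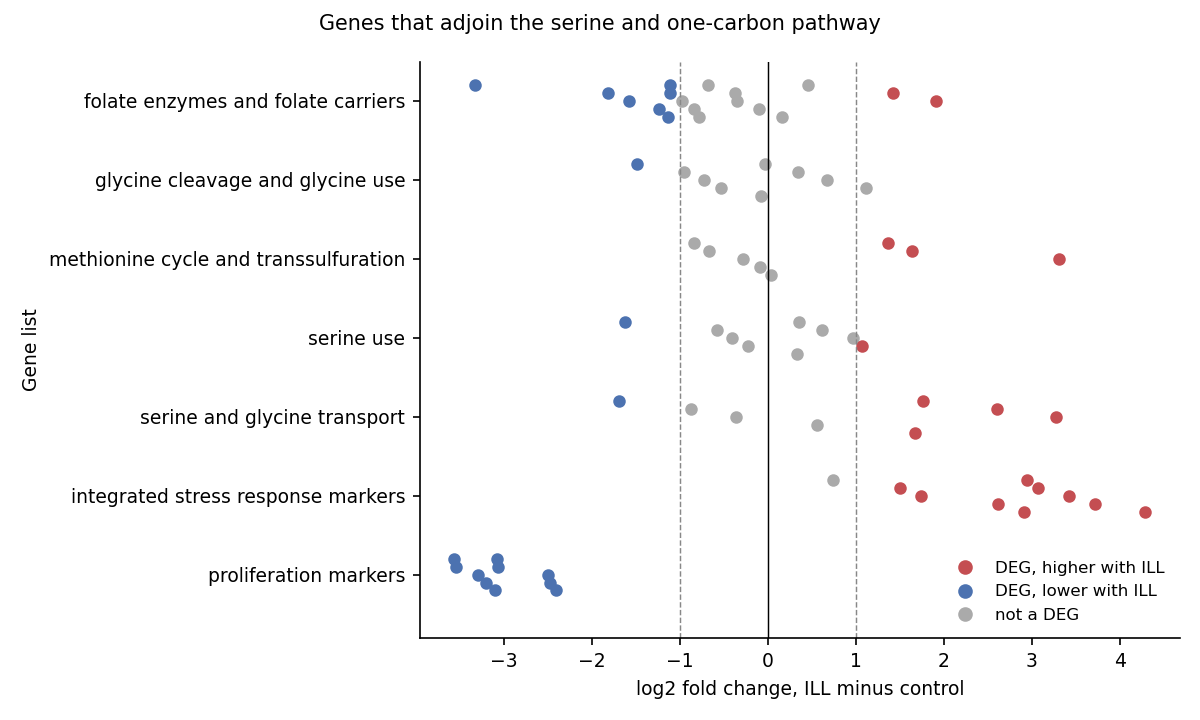
Log2 fold change, ILL minus control, of each tested gene in the 5 adjoining lists and the lists of integrated stress response and proliferation markers, with DEGs in red (higher) or blue (lower) and other genes in grey. Each point is a gene, dashed lines mark a fold change of 2, and all 10 proliferation markers lie to the left of the lower line.

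Markers of other cell states moved along with the enzymes. All 10 integrated stress response markers rose, 9 of them as DEGs, beside 36.2% and 12.5% of all tested genes. Their summed level was 643 to 646 CPM in controls and 2290 to 2369 CPM with ILL, with none at 0. ATF4 transcript, which encodes the factor named above, had 37.4, 35.4 and 36.7 FPKM in controls and 112, 116 and 121 FPKM with ILL, a 3.35-fold increase (adjusted p = 7.85e-20). In the other direction, all 10 proliferation markers were DEGs with lower levels, beside 11.4% of all tested genes. Their sum was 3036 to 3138 CPM in controls and 372 to 384 CPM with ILL, with none at 0. These shifts accompany the rise of PHGDH, PSPH and the mitochondrial genes and the fall of MTHFD1 and TYMS, and their part in those results was not tested.

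As a description, the genes whose profile over the 6 libraries lay nearest to the median profile of the 9 enzyme genes, by Euclidean distance of log2 CPM from the control mean, were CPT1A, STK38, EIF1, GOLGA8A and TAB3, at distances of 0.0246 to 0.0688. The median profile rose by 0.66 on the log2 scale with ILL, far from ALDH1L2 or MTHFD1, and 1655 genes lay within 0.5 of it. SHMT2 is the middle of the 9 genes by log2 fold change, so the closeness of the median profile to SHMT2 follows from its construction. The nearest genes therefore resemble SHMT2 more than the 9 genes as a set.

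Shared sequence bears on some of these counts. No 50-base window of the coding sequence of PHGDH or SHMT2 occurred in transcripts of another gene. The share was 0.242% for MTHFD1L, 3.57% for ALDH1L2, 4.5% for SHMT1, 14.5% for PSPH, 15.4% for MTHFD2 and 15.6% for MTHFD1. With windows of 100 bases, MTHFD1 kept 4.86% and ALDH1L2 1.76%, and the other 7 genes had 0%. GENCODE 29 lists 7 pseudogenes of MTHFD2 and 1 each of PSPH, SHMT1 and MTHFD1, none of them in the count table, so the levels of these 4 genes may hold reads from those copies.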

How the data were processed

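HCCC9810 transcripts were measured by RNA-seq with ILL or vehicle, with groups and replicate numbers from the sample labels. For each library the authors deposited the unnormalised count of reads on each gene symbol and an FPKM value, with nothing pooled. The FPKM values the authors deposited equal count divided by gene length and total count within 0.1% for 100% of nonzero values. GRCh38 and DESeq2 are named in the submitters' processing notes, and the aligner and counting program are not given in the sources used here.

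Counts were filtered with filterByExpr (13066 of 19470 genes kept), scaled by TMM and tested with edgeR 4.0.16 in R 4.3.3 by the quasi-likelihood test with Benjamini-Hochberg adjustment over all tested genes. The biological coefficient of variation was 0.0717, and totals of 34282764 to 37758569 counts leave counting error small except for genes such as PSAT1. Ratios used exact permutation tests. The test was checked on simulated data with known changes. Alternatives were DESeq2 1.42.0, other scaling and filters, limma 3.58.1 on log2 FPKM, the replicate number as a block and leaving out each library.

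The enzyme genes and the lists were chosen with earlier results of these data known. Genes named come from the 9 enzymes, 26 adjoining genes fixed by role, and the 5 genes nearest to the enzymes' median profile. SPTLC3, SFXN2 and SFXN3 were added from the lists after their values were seen. Cell type and state markers are named where they bear on a result. Gene positions come from GENCODE 29 and promoter windows from RefSeq. Proteins and metabolites were not analysed here. Values for a few listed genes are not reported here.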

Additional observations from a re-analysis of the deposited data

How the results depend on the processing

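None of the 9 enzyme genes changed sign or crossed the adjusted p threshold under any alternative that gave it a value (15 for each gene, 12 for PSAT1), nor did 23 of 26 adjoining genes. The exceptions were GLDC, AMT and SRR. The log2 fold change of PHGDH ranged from 2.68 to 3.07, that of ALDH1L2 from 2.76 to 3.70, that of MTHFD2 from 1.52 to 1.63 and that of MTHFD1 from -1.93 to -1.82. Among low genes, limma on log2(FPKM + 1) gave 1.73 for CBS, 1.17 for ALDH1L1, -0.29 for GLDC and 0.17 for AMT, in place of 3.31, 1.91, -0.95 and 1.11. Without the fold change cutoff, 8 enzyme genes were called in place of 5, 2 of them lower in place of 1, and 9547 of all tested genes in place of 3120. With limma on log2(FPKM + 1), 1591 genes were DEGs (668 higher, 923 lower), and 1609 when no filter was applied (680 higher, 929 lower). With a pseudocount of 0.1 and the filter, limma gave 909 higher and 1247 lower, against 1635 and 1485 from edgeR. The cause of these shifts was not tested. Scaling by library size alone moved the median of all genes from -0.0012 to -0.07 on the log2 scale.

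Same-numbered libraries did not deviate together (correlations of 0.011, -0.022 and -0.018). That cannot show whether they were prepared as pairs, which the labels do not state. With the replicate number as a block, 5 enzyme genes and 3111 of all tested genes were DEGs. Depth limits PSAT1, GLDC and AMT.

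Among the adjoining lists, DEGs of glycine cleavage and use moved between 0 and 1 higher and 1 and 2 lower, and those of serine use between 0 and 2 higher, across the alternatives.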
